A study of Mus musculus with 6 samples.

Results

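The syndecans (Sdc1, Sdc2, Sdc3 and Sdc4) and the glypicans (Gpc1 to Gpc6) are the 2 main families of cell-surface heparan sulfate proteoglycans, and all 10 genes were taken by symbol from a table of 45706 genes. They were followed in 6 mouse embryonic hearts of strain C57BL6/J, 3 littermate controls and 3 double knockouts. All 6 carried floxed alleles of the RNA-binding protein genes Rbpms and Rbpms2 on both chromosomes (RBPMS flox/flox RBPMS2 flox/flox), and the knockouts alone also carried aMyHC Cre, a recombinase driven by the promoter of alpha-myosin heavy chain, a protein of heart muscle cells. The controls held no Cre, so the deletion and the transgene cannot be told apart, and deletion is limited to cells in which that promoter is active. The labels give neither the embryonic day nor the number of litters, and p-values measure the spread between these 6 samples. Poly(A) RNA of whole hearts was sequenced, so that a transcript level sums over all cell types, and fewer cells of a type and less RNA per cell cannot be told apart.

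Heparan sulfate is a long sulfated sugar chain that is built on a core protein in the Golgi and binds growth factors, morphogens and matrix proteins. Syndecans span the membrane, and their short cytoplasmic tails bind PDZ proteins and cytoskeletal partners. Glypicans are held in the outer leaflet by a lipid anchor (glycosylphosphatidylinositol) and are known for tuning hedgehog, Wnt, BMP and FGF signals in embryos. Syndecan-4 is a component of focal adhesions, works beside integrins, and is found at the Z-disc and costamere of heart muscle cells.

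The values are normalised read numbers, in which the authors had scaled each heart by its own factor and rounded the result. Estimated depth before that division was 12959798 to 25838007 reads per heart. Rbpms was at 6998, 3868 and 7656 in controls 1 to 3 and at 1134, 1117 and 852 in knockouts 1 to 3, and Rbpms2 was at 1711, 1362 and 1998 against 879, 1003 and 911, so the labels and both targeted genes go together. All 10 cardiomyocyte markers examined, such as Tnnt2 and Actc1, were measured in these hearts. Both sexes were present: Xist and Y-linked transcripts marked 2 females among the controls and 1 among the knockouts.

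Sdc4 and Gpc6 were higher in the knockout hearts, and no member fell. Of the 10 members, 9 had a mean value of at least 10 and were tested with limma over all 15556 such genes, and the tenth, Gpc5, was at the floor. At an adjusted p of 0.05, 2 of the 9 rose, where 8.61% of all genes tested did, and 0 fell, where 8.56% of all genes did. At an unadjusted p under 0.05 there were 5 higher and 0 lower members, where 16.1% of all genes tested were higher and 15.5% lower. The fitted change was above 0 in 8 of the 9, with a median log2 change of 0.29, beside 0.00 over all genes tested. Every knockout heart lay above every control heart in 2 members, Sdc4 and Gpc6, and in 17.5% of all genes tested. The plot of values by heart shows the separation of these 2 and the overlap in the rest.

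**Figure D1:**
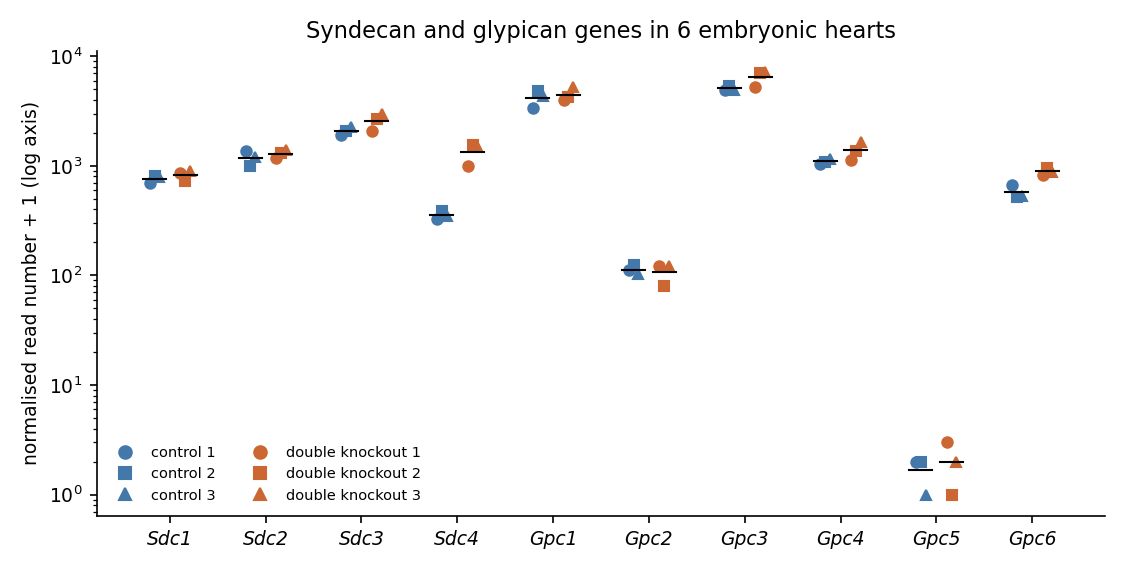
Normalised read number plus 1, on a log axis, for each of the 10 genes in 3 control (blue) and 3 double knockout (orange) hearts; black lines are group means. Sdc4 separates the groups most clearly, from 327 to 389 in controls and 996 to 1541 in knockouts, Gpc6 separates them less, and Gpc5 lies at 0 to 2 throughout.

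Sdc4 (ENSMUSG00000017009) lies on mm10 chromosome 2, 164424247 to 164443887, minus strand. It was at 327, 389 and 346 in controls 1 to 3 and at 996, 1541 and 1509 in knockouts 1 to 3. All 3 knockouts lay far above the controls, and knockout 1 was the lowest of them. The means were 354 ± 31.8 and 1349 ± 306 (SD, n = 3 each). The log2 fold change was 1.90 (SE 0.15), or 3.74-fold with a 95% interval of 2.95 to 4.74 (limma adjusted p = 0.00024). By size of the fitted rise it ranked 35 among the 15556 genes tested. These values rest on an estimated 243 to 453 reads per control heart and 1273 to 1607 per knockout heart, and Sdc4 shares no exon with another annotated gene. Without each heart in turn the log2 change was 1.79 to 2.11, and it passed each time.

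The 250 bases before the RefSeq start of Sdc4 (GRCm38.p6, chr2:164443189-164443438, minus strand) are shown because this gene had the largest change, beside those of Sdc3 (chr4:130792287-130792536, plus strand), the syndecan with the most reads, which did not pass the test. Capitals mark the TATA core TATAA and the sequence GGGAATTCC, a form of the site bound by NF-kappa-B factors. Both are written 5′ to 3′ on the strand of the gene, with the start just after the last base.
Sdc4: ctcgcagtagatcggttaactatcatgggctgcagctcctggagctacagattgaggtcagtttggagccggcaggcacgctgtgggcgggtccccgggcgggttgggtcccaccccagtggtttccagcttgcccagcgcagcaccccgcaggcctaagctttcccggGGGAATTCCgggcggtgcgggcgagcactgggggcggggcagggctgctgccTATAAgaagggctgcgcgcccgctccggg
Sdc3: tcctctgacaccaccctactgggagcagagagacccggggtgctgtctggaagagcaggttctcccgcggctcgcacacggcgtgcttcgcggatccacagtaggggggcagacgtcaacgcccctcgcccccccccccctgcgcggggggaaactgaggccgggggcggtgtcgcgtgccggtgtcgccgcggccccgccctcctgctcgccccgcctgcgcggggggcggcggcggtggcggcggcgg
Motifs were chosen with these sequences in view and searched on both strands, and a match is a description of letters only. Positions count from the RefSeq start. For Sdc4 this start and its window lie inside the gene bounds given above, which on the minus strand begin at 164443887, so the positions hold for the RefSeq start only. The Sdc4 window holds 1 TATAA, beginning 29 bases before the start, and 1 GGGAATTCC, beginning 81 bases before it, while the Sdc3 window holds neither. Of the other member windows, those of Sdc1, which did not pass the test, and Gpc5, which was at the floor, also hold TATAA (2 matches and 1), and none holds GGGAATTCC. The GGGAATTCC ends just before a GC box and overlaps none of the other motifs searched. TATAA occurs in 22.8% and GGGAATTCC in 0.21% of 32851 RefSeq windows of the same length. The GC box GGGCGG occurs 4 times in the Sdc4 window and 3 times in that of Sdc3, and at least once in 32.7% of all windows. Neither window holds the CCAAT box (33.8% of windows), the E-box CACGTG (6.02%) or the AP-1 type site TGACTCA (4.46%). G and C make up 68.0% of the Sdc4 window and 76.4% of the Sdc3 window. Promoter windows were matched for 7 of the 10 members.

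The other syndecans had smaller fitted changes, none past the threshold. Sdc3 (ENSMUSG00000025743, chromosome 4, 130792537 to 130826319, plus strand), best known from neurons and skeletal muscle, measured 1928, 2096 and 2254 across controls 1 to 3 against 2078, 2667 and 2983 across knockouts 1 to 3. Knockout 1 fell within the range of the controls, and the other two knockouts lay above it. The log2 change was 0.29 (SE 0.12, 95% interval 0.02 to 0.55) and did not pass (limma adjusted p = 0.132). Without knockout replicate 1 it was 0.43 and passed (limma adjusted p = 0.0111).

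Sdc2 (ENSMUSG00000022261, chromosome 15, 32920723 to 33034935, plus strand), a syndecan of mesenchymal cells, measured 1357, 991 and 1195 across controls 1 to 3 against 1170, 1309 and 1378 across knockouts 1 to 3, and the groups overlapped. Its log2 change was 0.13 (SE 0.11, 95% interval -0.12 to 0.38; limma adjusted p = 0.466). Sdc1 (ENSMUSG00000020592, chromosome 12, 8771323 to 8793715, plus strand), the main syndecan of epithelia and plasma cells, measured 695, 805 and 787 across controls 1 to 3 against 853, 729 and 893 across knockouts 1 to 3. These ranges overlapped too, with a log2 change of 0.11 (SE 0.10, 95% interval -0.10 to 0.33; limma adjusted p = 0.469). The intervals leave room for rises of up to 1.30-fold in Sdc2 and 1.25-fold in Sdc1, well short of the 2.95-fold at the lower end for Sdc4.

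**Figure D2:**
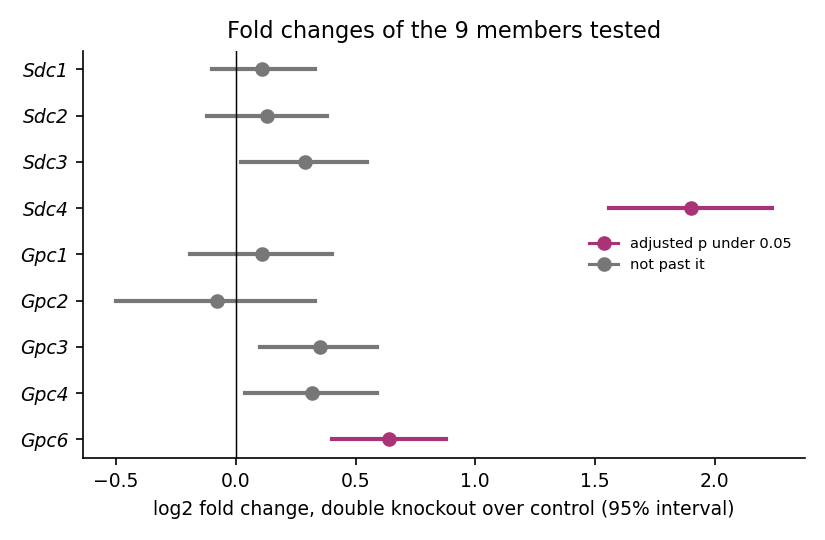
Log2 fold change of double knockout over control for the 9 members tested (points) with 95% intervals (lines); purple marks an adjusted p under 0.05. Sdc4 at 1.90 and Gpc6 at 0.64 are the 2 past the threshold, and the intervals of Sdc3, Gpc3 and Gpc4 begin just above 0.

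Ratios within each heart give the fold changes of Sdc4 and of its relatives side by side, and are a description, since Sdc4 was taken up for its change. On the log2 scale the ratio of Sdc4 to Sdc3 was -2.56, -2.43 and -2.70 across controls 1 to 3 against -1.06, -0.79 and -0.98 across knockouts 1 to 3, a difference of 1.62. The ratios to Sdc1 and Sdc2 differed by 1.79 and 1.77. Each of these 3 ratios was higher in every knockout than in every control.

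Set per kilobase of annotated exon, so that genes of different length can be compared, Sdc4 went from the lowest to the highest mean among syndecans. In the knockouts its range overlapped that of Sdc3 (391.0 to 605.0 against 347.0 to 498.1). By read number with no length, Sdc3 stayed higher in the knockouts, at a mean of 2576 against 1349. The share of Sdc4 in the summed syndecan level per kilobase was 12.6%, 15.3% and 12.8% across controls 1 to 3 against 30.2%, 37.5% and 34.5% across knockouts 1 to 3. The mean share was 13.6% ± 1.52 against 34.1% ± 3.66 (SD, n = 3 each), a difference of 20.5 percentage points (exact two-sided permutation p = 0.1, the smallest that 3 against 3 hearts allow). The shares of Sdc1, Sdc2 and Sdc3 differed by -5.29, -8.89 and -6.31 points in turn, as shares of 1 sum must be when another grows, while none of these 3 genes fell in its own level. The summed syndecan level per kilobase was 995.0 to 1058 in the controls and 1294 to 1716 in the knockouts, a ratio of 1.51 (exact permutation p = 0.1). Without Sdc4 the sums were 842 to 922 and 903 to 1123, with overlapping ranges and a ratio of 1.14 (exact permutation p = 0.2). These shares and sums rest on the same values as the fold changes, and Sdc4 was taken up for its change, so they are a description too.

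**Figure D3:**
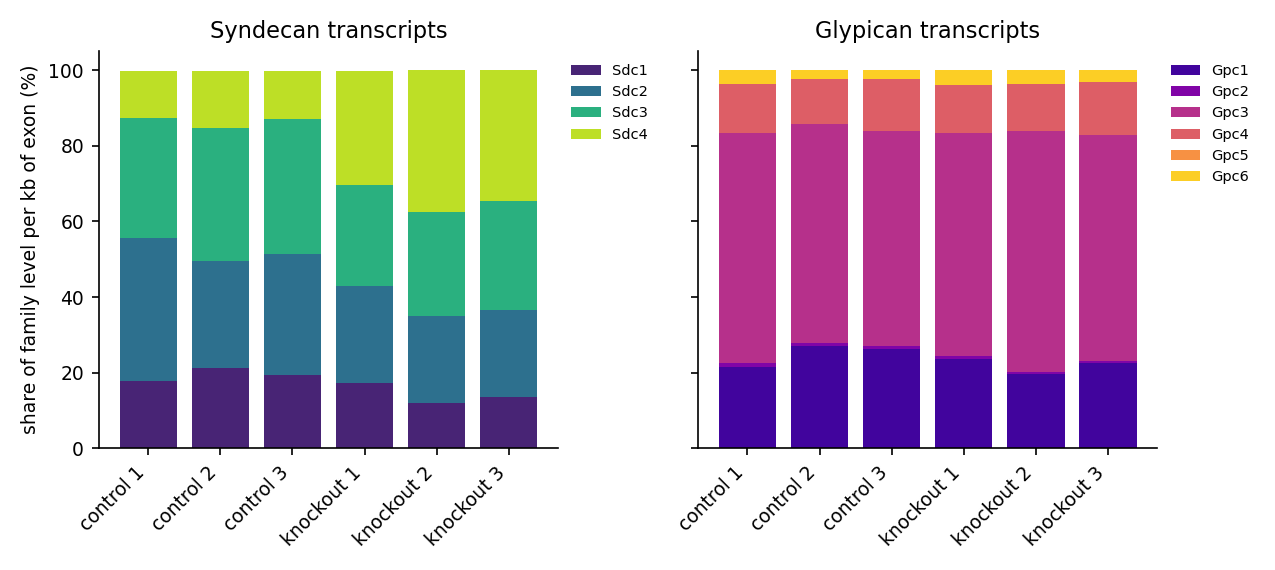
Share of each gene in the summed level per kilobase of exon of its family, in percent, for each of the 6 hearts: syndecans on the left, glypicans on the right. Sdc4 takes 12.6% to 15.3% of the syndecan level in controls and 30.2% to 37.5% in knockouts, while Gpc3 takes 56.9% to 63.8% of the glypican level in every heart.

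Among glypicans, Gpc6 was the member that rose. Gpc6 (ENSMUSG00000058571, chromosome 14, 116925315 to 117976544, plus strand), whose loss shortens the limbs in humans, measured 671, 517 and 532 across controls 1 to 3 against 830, 960 and 877 across knockouts 1 to 3. The groups did not overlap, although control 1 stood above the other two controls. Means were 573 ± 84.9 and 889 ± 65.8 (SD, n = 3 each). The log2 fold change was 0.64 (SE 0.11), or 1.56-fold with a 95% interval of 1.32 to 1.84 (limma adjusted p = 0.00398). It passed without each heart in turn, at 0.57 to 0.76. As a description, the log2 ratio of Gpc6 to Gpc2 was higher by 0.72 in the knockouts with no overlap, and those to Gpc1, Gpc3 and Gpc4 by 0.29 to 0.53 with overlap.

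Gpc3 and Gpc4 are neighbours on the X chromosome. Gpc3 (ENSMUSG00000055653, X, 52272426 to 52613950, minus strand), whose loss causes the human overgrowth disorder Simpson-Golabi-Behmel syndrome and which restrains hedgehog signals, measured 4930, 5391 and 4904 across controls 1 to 3 against 5261, 7079 and 7193 across knockouts 1 to 3. Gpc4 (ENSMUSG00000031119, X, 52053021 to 52165252, minus strand) measured 1048, 1081 and 1152 across controls 1 to 3 against 1120, 1359 and 1664 across knockouts 1 to 3. In both genes knockout 1 sat within the range of the controls and knockouts 2 and 3 above it. Gpc3 had a log2 change of 0.35 (SE 0.11, 95% interval 0.10 to 0.59) and missed the threshold narrowly (limma adjusted p = 0.0585). For Gpc4 it was 0.32 (SE 0.12, 95% interval 0.04 to 0.59; limma adjusted p = 0.105).

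The call for Gpc3 turned on scaling and on 1 heart. It passed with values scaled to equal totals (log2 change 0.38, limma adjusted p = 0.0416), with quantile normalization (0.36, limma adjusted p = 0.0467) and with limma-voom (0.37, adjusted p = 0.0487). Without knockout replicate 1 both X-linked genes passed, Gpc3 at 0.49 (limma adjusted p = 0.00271) and Gpc4 at 0.46 (limma adjusted p = 0.0137). With embryo sex as a term, of interest for X-linked genes, the changes were 0.36 and 0.32 and neither passed (limma adjusted p = 0.0887 and 0.157). Gpc3 made up 58.6% ± 2.09 of the glypican level per kilobase in the controls and 60.9% ± 2.56 in the knockouts (SD, n = 3 each; exact permutation p = 0.4).

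Gpc1 (ENSMUSG00000034220, chromosome 1, 92831645 to 92860779, plus strand), a carrier of FGF2-binding chains, measured 3357, 4811 and 4347 across controls 1 to 3 against 4013, 4202 and 5197 across knockouts 1 to 3. The groups overlapped, with a log2 change of 0.11 (SE 0.13, 95% interval -0.19 to 0.40; limma adjusted p = 0.631). Its direction was not settled: the change was -0.04 without control replicate 1 and -0.01 without knockout replicate 3. Gpc1 shares 977 of its 5159 exon bases with Ankmy1 on the other strand, and Ankmy1 was at 0 to 3 in every heart. Any use of strand in counting is not stated, so Gpc1 reads from those bases may be missing. The same holds for Sdc3, which shares 415 of its 5989 exon bases with Gm26716 and 48 with Gm12970 on the other strand.

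Gpc2 and Gpc5, the glypicans best known from the nervous system, were low. Gpc2 (ENSMUSG00000029510, chromosome 5, 138273655 to 138280005, minus strand) measured 110, 124 and 101 across controls 1 to 3 against 120, 79 and 122 across knockouts 1 to 3, with a log2 change of -0.08 (SE 0.19, 95% interval -0.50 to 0.33; limma adjusted p = 0.804). The table holds a second row named Gpc2 (ENSMUSG00000106247), listed at 0 in all 6 hearts. It overlaps the first on the same strand over 2376 of 4274 exon bases, so Gpc2 reads from those bases may be missing and its level is less certain. Gpc5 (ENSMUSG00000022112, chromosome 14, 115092215 to 116525179, plus strand), the neighbour of Gpc6, measured 1, 1 and 0 across controls 1 to 3 against 2, 0 and 1 across knockouts 1 to 3. These are an estimated 0 to 3 reads per heart, so a difference in Gpc5 was not detectable at this depth, where 3 reads correspond to values of 2.08 to 4.27.

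Across both families the level per kilobase of exon spanned from near 0 to over 1800. In the controls the order was Gpc3 (1887 ± 102), Gpc1 (809 ± 144), Gpc4 (395 to 435), Sdc3 (349 ± 27.2), Sdc2 (335 ± 52.0), Sdc1 (200.1 ± 15.5), Sdc4 (139 ± 12.5), Gpc6 (89.2 ± 13.2), Gpc2 (26.1 ± 2.71) and Gpc5 (0.15 ± 0.13), as mean ± SD of 3 hearts or, for Gpc4, the range. Of these neighbours, Sdc3 and Sdc2 overlapped between hearts and the other pairs did not. In the knockouts Sdc4 (529.5 ± 120.1) took the third place, behind Gpc3 (2420.4 ± 403) and Gpc1 (867 ± 123), and overlapped with Gpc4 (521 ± 103) next to it. Gpc4 also overlapped with Sdc3 (430.1 ± 76.7), and Sdc3 with Sdc2 (364.5 ± 30.0). The summed glypican level was 3009 to 3454 in the controls and 3314 to 4474 in the knockouts, with overlap and a ratio of 1.23 (exact permutation p = 0.2).

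The genes whose pattern over the 6 hearts was most like that of Sdc4 were Etv5, Itgav and Nppa, out of 11331 other genes whose mean value reached 100. Likeness was the root mean square difference of log2 values, each gene centred on its own mean, and was 0.153, 0.199 and 0.221 in turn. Etv5, an ETS transcription factor, measured 351, 488 and 369 across controls 1 to 3 against 1126, 1393 and 1450 across knockouts 1 to 3. Itgav, the integrin alpha-V subunit, was at 848, 921 and 697 against 2262, 2776 and 2707. These genes were selected for this pattern, so their values are a description. Nppa, the atrial natriuretic peptide gene, was at 3635, 6446 and 3743 against 13576, 16758 and 18230.

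Of 31 tested genes of heparan sulfate chain synthesis, chain modification and sulfate supply, 4 rose (12.9%) and 2 fell (6.45%). Over all genes tested 8.61% rose and 8.56% fell, so these counts lie near that background, and the counts in the lists that follow are to be read against the same shares. In chain initiation and polymerization (12 tested, 1 up and 2 down, median log2 change 0.05), Pxylp1, a phosphatase of the xylose in the linker, fell by 0.63 (SE 0.09). Extl3, which starts the heparan sulfate chain, fell by 0.29 (SE 0.08), and Ext1, a subunit of the chain polymerase, rose by 0.32 (SE 0.07), from 1082, 1138 and 1151 to 1361, 1440 and 1411. Its partner subunit Ext2 was at 882 to 1117 and 1060 to 1289 and did not pass (limma adjusted p = 0.194).

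Of 13 tested chain modification genes 3 rose and 0 fell (median log2 change 0.23). Ndst3, an N-deacetylase and N-sulfotransferase, was at 52, 28 and 47 against 75, 96 and 76 and rose by 0.98 (SE 0.24), while the 3-O-sulfotransferase Hs3st4 was at 19, 16 and 23 against 33, 35 and 47 and rose by 0.95 (SE 0.25). The more abundant Sulf1, which removes 6-O-sulfate outside the cell, rose by 0.31 (SE 0.08), from 1316 to 1604 in controls to 1754 to 1942 in knockouts. Ndst1, the abundant sulfotransferase of most tissues, was at 1692 to 1912 and 1540 to 1734 and did not pass (limma adjusted p = 0.24). None of the 6 sulfate donor genes passed (limma; 1 at an unadjusted p under 0.05), of which Slc35b3 was at 223 to 267 against 291 to 301 and Slc35b2 at 820 to 929 against 915 to 999. Over these lists together, the 6 calls became 1 without knockout replicate 2, 3 without control replicate 2 and 2 with no filter on low values.

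**Figure D4:**
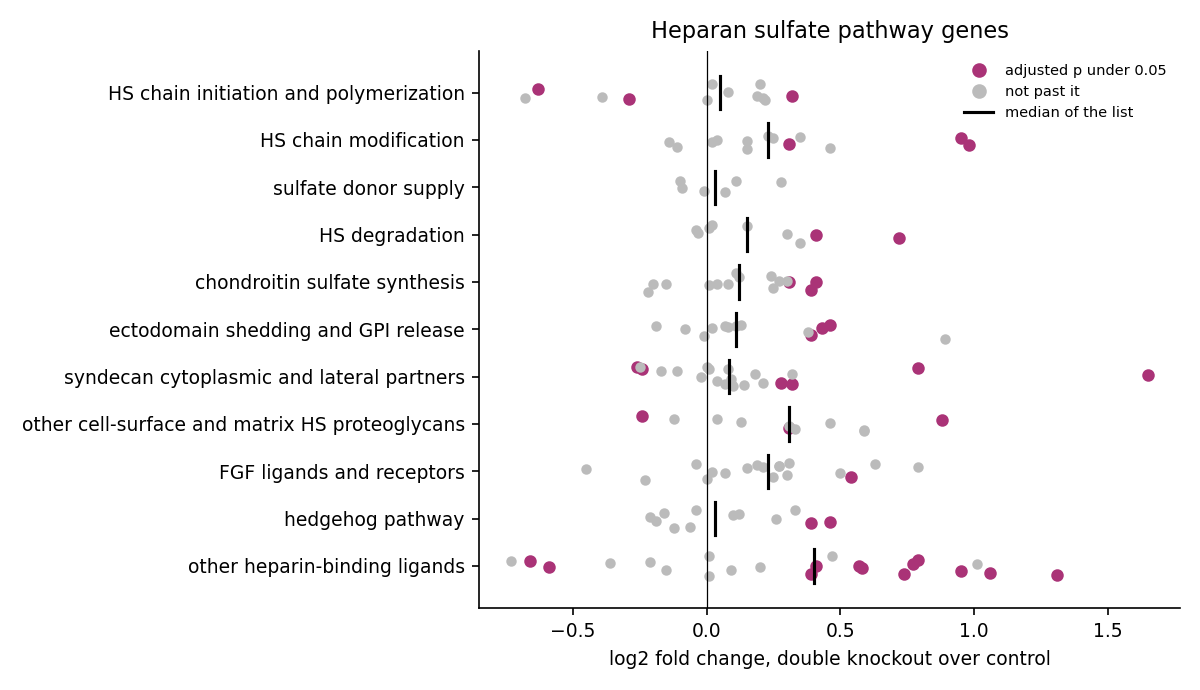
Log2 fold change of double knockout over control for the tested genes of 11 lists around heparan sulfate (HS); each point is a gene, purple marks an adjusted p under 0.05 and the black bar is the list's median. Calls in chain synthesis lie on both sides of 0, and the list of heparin-binding ligands has the most calls, 10 up and 2 down of 22.

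The next lists hold genes around the breakdown and shedding of proteoglycans and those of the related chondroitin sulfate chains. Of 9 tested genes of lysosomal degradation and heparanase, 2 rose (22.2%) and 0 fell (median log2 change 0.15), beside the 8.61% and 8.56% of all genes: Arsg, the sulfatase for 3-O-sulfate, by 0.72 (SE 0.16) and Ids, iduronate 2-sulfatase, by 0.41 (SE 0.12). Leaving out 1 heart at a time gave 0 to 2 rises. Of 13 genes of shedding, release and their control, such as the protease inhibitor Timp3, 3 rose (23.1%) and 0 fell (median 0.11). Without each heart 2 to 3 rose. Adam9, a membrane metalloprotease, rose by 0.46 (SE 0.07), Mmp14, the membrane-type matrix metalloprotease, by 0.39 (SE 0.08) and Mmp2, which MMP14 activates, by 0.43 (SE 0.09). Chondroitin sulfate enzymes, which act on the second kind of chain that Sdc1 and Sdc4 can carry, had 3 up and 0 down of 15 (median 0.12, 0 to 3 up without each heart). These were Csgalnact1, up by 0.41 (SE 0.11), Chpf2 by 0.39 (SE 0.11) and Dse by 0.31 (SE 0.09).

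Of 22 partners of syndecans in the membrane and cytoplasm, 4 rose (18.2%) and 2 fell (9.09%), with a median log2 change of 0.09, beside 8.61% and 8.56% of all genes tested. The 2 largest rises were integrin subunits that pair with each other: Itgav by 1.65 (SE 0.11) and Itgb5 by 0.79 (SE 0.12), from 2118, 2495 and 2490 to 3341, 4360 and 4662. Cttn, the actin-binding protein cortactin, rose by 0.28 (SE 0.06), and Actn1, an alpha-actinin that binds the tail of syndecan-4, fell by 0.24 (SE 0.07). Sdcbp, which encodes syntenin, the PDZ protein that binds syndecan tails, was at 3804 to 4163 and 3618 to 3791 and did not pass (limma adjusted p = 0.252). With equal totals 5 partners rose and 1 fell, and with limma-voom 5 and 0. Leaving out 1 heart at a time gave 2 to 4 rises and 0 to 3 falls.

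Of 11 other cell-surface and matrix proteoglycans, 2 rose (18.2%) and 1 fell (9.09%), beside the same 8.61% and 8.56%. Most carry heparan sulfate always or at times, but the list also holds Cspg4, a chondroitin sulfate proteoglycan that is among the mural cell markers too. Cd44, the hyaluronan receptor, rose by 0.88 (SE 0.10), from 651, 804 and 656 to 1240, 1398 and 1226, and Agrn, the basement membrane protein agrin, by 0.31 (SE 0.08). Tgfbr3, betaglycan, fell by 0.24 (SE 0.07), a call lost with equal totals, quantile normalization, limma-voom and without each heart. Without each heart 1 to 2 of the list rose. Hspg2, perlecan, was at 16572 to 22481 in the controls and 16305 to 21828 in the knockouts, with overlap.

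Among the ligands that such chains bind, most of the genes called were higher. Of 22 heparin-binding ligands and matrix proteins outside the FGF family, 10 rose (45.5%) and 2 fell (9.09%), where 8.61% and 8.56% of all genes tested did. The list was chosen with earlier results of these data known, so its counts are a description only. The median log2 change was 0.40 beside 0.00 over all genes tested, and leaving out 1 heart at a time gave 8 to 12 rises and 1 to 2 falls. Slit2, a guidance ligand, rose by 1.31 (SE 0.14), Ptn, pleiotrophin, by 0.95 (SE 0.12), and the matrix proteins Tnc and Thbs1 by 0.79 (SE 0.11) and 0.77 (SE 0.11). The 2 that fell were Cxcl12 and Vegfb, with log2 changes of -0.66 (SE 0.14) and -0.59 (SE 0.11). Ptn, a ligand known to bind syndecan-3, went from 3143, 2337 and 2950 to 4813, 5378 and 6036. FGF receptors need heparan sulfate. In the list of FGF family genes, which includes the adaptors Frs2 and Frs3, 1 of 18 tested genes rose (5.56%, beside 8.61% of all genes) and 0 fell. It was the receptor Fgfr2, which rose by 0.54 (SE 0.11), from 229 to 259 in controls to 317 to 407 in knockouts. With 1 heart left out there were 0 to 2 rises and 0 to 1 falls. Of 12 hedgehog pathway genes 2 rose (16.7%) and 0 fell (0 to 2 up without each heart). They were Cdon, a co-receptor, by 0.39 (SE 0.08), and Gli3, a transcription factor of the pathway, by 0.46 (SE 0.10), while the ligand genes Shh and Ihh were too low to be tested. The ligand gene Dhh was tested, at 25, 35 and 30 against 32, 33 and 31, and did not pass (limma adjusted p = 0.79). Gli1 and Ptch1 of the same list had log2 changes of -0.19 and -0.04 and did not pass (limma adjusted p = 0.597 and 0.803).

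Summed markers of several cell types other than heart muscle were also higher in the knockouts, although not every marker rose. A sum follows its most abundant genes, such as Col3a1 among fibroblast markers, at means of 34254 and 50105. The counts of markers called are to be read beside the 8.61% up and 8.56% down of all genes tested. The summed fibroblast and mesenchymal markers (9 tested, 4 up and 0 down) were at 92612 to 107749 in the controls and at 120940, 141468 and 150415 in knockouts 1 to 3. Summed epicardial markers (2 of 9 up) were at 4520 to 4990 against 5366 to 6109. Endothelial and endocardial markers (5 of 10 up) summed to 25338 to 27100 against 29611 to 34205. Macrophage markers (8 of 10 up) summed to 1796 to 2081 against 2660 to 3920. Without each heart, 2 to 5 fibroblast, 1 to 3 epicardial, 4 to 8 endothelial and 8 macrophage markers rose. Cdh5, Kdr and Tbx18 had log2 changes of 0.00, 0.04 and 0.02. Dcn, Lum and Pdgfra, at 0.19, 0.23 and 0.26, did not pass. The 10 cardiomyocyte markers (0 up, 2 down) summed to 1025375 to 1047147 in the controls and 812258 to 901195 in the knockouts. Much of that gap lay in the 2 that fell: Myh6, the gene whose promoter drives the Cre, by 1.53 (SE 0.11) and Actc1, cardiac actin, by 0.38 (SE 0.11). The other 8, set apart after their values were seen, summed to 640825 to 682118 against 588476 to 633542, with no overlap. Among them Myh7, Tnni3 and Mybpc3 had log2 changes of -0.06, 0.04 and 0.01. Ttn, Tnnt2, Nkx2-5, Ryr2 and Tnni1 had log2 changes of -0.24, -0.22, -0.19, -0.16 and -0.14, and none of the 8 passed. No marker of these lists was at 0 in every heart. In each of these 5 sums knockout 1 was the knockout nearest to the controls, as it was for Sdc4, Sdc3, Gpc3, Gpc4 and Gpc6. The part of these cell types in the changes of the members was not tested.

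**Figure D5:**
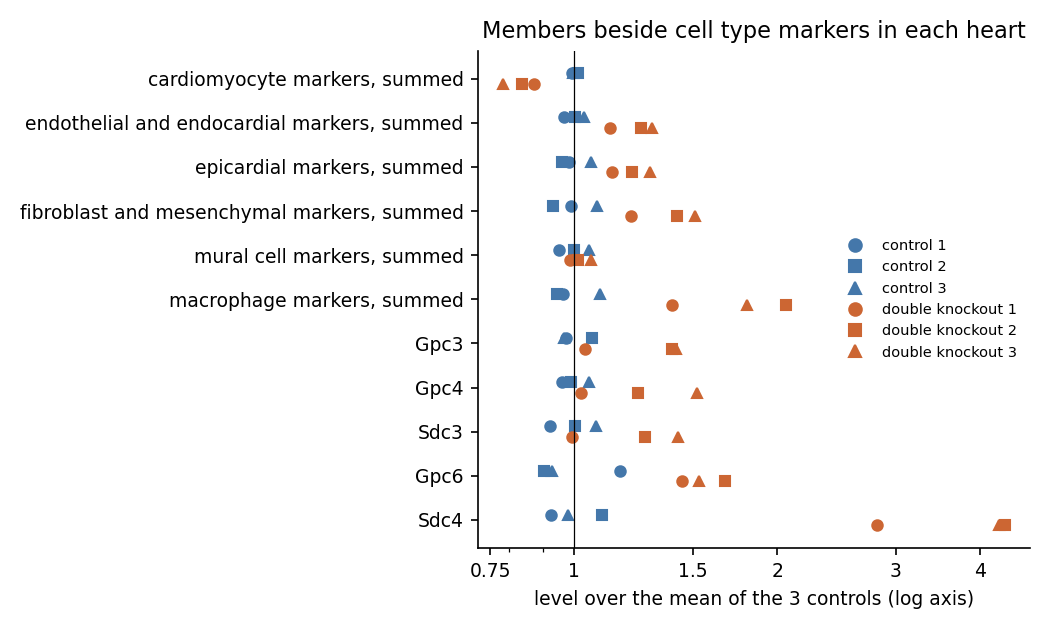
Level in each heart over the mean of the 3 controls, on a log axis, for summed markers of 6 cell types and for 5 members; blue is control, orange double knockout, and the symbol gives the replicate number. Knockout 1 (orange circle) lies nearest to the controls in most lines, and Sdc4 is displaced further to the right than any marker sum shown.

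Summed mural cell markers (0 up and 1 down of 8) were at 27166 to 30126 and 28262 to 30317, with overlap. That sum is weighted to Des, the most abundant of them, at 14409 to 16197 in controls and 13476 to 14082 in knockouts. The list's median log2 change was 0.21, and the marker that fell was Myh11, at a log2 change of -1.49 (SE 0.31). Abcc9, Pdgfrb, Cspg4, Notch3 and Kcnj8 had log2 changes of 0.19, 0.26, 0.33, 0.32 and 0.24, and Des and Rgs5 of -0.14 and -0.02. None of these passed, and the overlap of the sum does not describe each marker. Erythroid markers (0 of 7 called, median log2 change -0.56) summed to 37883, 40293 and 66095 in controls 1 to 3 and to 34223, 30384 and 37705 in knockouts 1 to 3. Without each heart 0 to 3 of them fell. Of the 7 markers of neural crest and Schwann cells 3 could be tested, of which 0 were called.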

How the data were processed

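Poly(A) RNA of 6 embryonic mouse hearts was measured by stranded, paired-end sequencing, 3 per group, with groups and replicate numbers taken from the sample titles. The tools, per the submitters' processing notes, included DESeq and DESeq2, featureCounts 1.5.0, STAR 2.4.2a and Trimmomatic, with build mm10. Their roles and order, and any use of strand in counting, are not stated in these sources. The deposited values are a score: gene reads scaled by the authors with 1 factor per heart and rounded, as read from the values. The value of 1 read, 0.6921 to 1.4228, was fitted to the spacing of values up to 150 and gave the estimated reads; exact reads cannot be recovered, so no count test was run (limma-voom on the estimated reads was an alternative).

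The test was limma 3.58.1 (R 4.3.3) with a variance trend on log2(value + 1). It covered the 15556 genes whose mean reached 10, with Benjamini-Hochberg adjustment over all of them, a threshold of 0.05 and group as the only term. A fold change on this scale understates the change of low genes. The script was tested on simulated data. Levels per kilobase used the union of GENCODE M21 exons (same build; 45143 of 45706 identifiers matched), and single values used exact permutation tests over hearts. Promoter windows came from RefSeq (GRCm38.p6), of which the 250 bases before the start were used. Other steps ran in Python 3.11.15 with matplotlib 3.10.9, numpy 2.4.6 and pandas 2.3.3.

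Members and lists were chosen with earlier results of these data known. Named were all 10 members, from each pathway list the called genes of smallest p, at most 4 (where none was called, 2 genes as values), and the 3 genes most like Sdc4. Ext2, Ndst1, Sdcbp, Hspg2, Shh, Ihh, Dhh, Cxcl12, Vegfb, Gli1, Ptch1, Frs2 and Frs3 were added as reference after their values were seen. All symbols of the lists were in the table. Replicates of a group differed by 7.08 to 14.1 times the sampling noise (chi-square per degree of freedom), so none was counted as a repeat of another. Alternatives were limma-voom, pseudocounts of 0.1 and 10, 2 other filters, equal totals, quantile normalization, the replicate number or embryo sex as a term, and leaving out each heart.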

Additional observations from a re-analysis of the deposited data

How the results depend on the processing

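The rises of Sdc4 (log2 change 1.79 to 2.11) and Gpc6 (0.57 to 0.76) passed in each of the 15 alternatives, and 0 members fell in any. The number of members that rose, 2, was 5 with the replicate block and 2 to 5 without each heart in turn; the 5 came without knockout replicate 1, where, as with the block, Sdc3, Gpc3 and Gpc4 were added. The replicate numbers did not pair the hearts: across genes, deviations of same-numbered hearts from their group means correlated at -0.041, -0.372 and 0.049, so the block gives no separate evidence. It raised the calls over all genes from 1339 up and 1331 down to 1787 and 1743. With no filter, 846 rose and 909 fell, and without each heart in turn 619 to 1237 rose and 700 to 1225 fell, the fewest without knockout replicate 2. Changes that turned sign were those of Gpc1 (-0.04 to 0.22 without each heart, being -0.04 without control replicate 1 and -0.01 without knockout replicate 3) and Gpc2 (-0.19 to 0.12 without each heart, being 0.12 without knockout replicate 2); none of these passed. The 6 heparan sulfate synthesis and modification genes called were 2 with no filter and 1 to 5 without each heart. Equal totals, which moved the median of all genes by 0.03, gave 1570 genes up and 1091 down, and limma-voom 1451 and 1044; no tested member turned sign under either. The difference in the Sdc4 share was 14.1 to 22.4 percentage points over its alternatives, and that in the Gpc3 share 0.798 to 3.41. Depth limits Gpc5 and, less so, Gpc2, at an estimated 65 to 173 reads per heart. The cause of these dependences was not tested.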
